A study of Mus musculus with 16 samples.

Results

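The responses of cortex and striatum to the R6/2 transgene were compared gene by gene, using all 16 of the 16 samples of the series and the 5938 genes with enough reads for a test in both regions, out of 21627 genes with at least 1 read. The samples were male mice at 3 months (3mos), with 4 samples each of R6/2 cortex, non-transgenic (NT) cortex, R6/2 striatum and NT striatum. RNA was read by PacBio Iso-seq, in which a single long read covers a transcript and is counted once. R6/2 mice carry the B6CBA-Tg(HDexon1)62Gpb/3J transgene, the first exon of human HTT with an expanded CAG repeat under the human HTT promoter, on a mixed background, and NT mice have the same background without it. The mice still have both of their own Htt alleles, so R6/2 models a truncated fragment added to the normal gene. No other allele or agent was given, and what all groups share is the background, the sex and the age. The labels do not say whether the cortical and striatal sample of the same number came from the same mouse. They also do not say that the samples of a group came from separate mice, so P values measure the spread between these samples. By the paper's account, the long-read samples are a subset of its short-read ones, which were biological replicates. It took striatum and cortex from the same brains, so the regions may share mice, and the main fits did not pair them.

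Huntington's disease is caused by an expanded CAG repeat in HTT, and the neurons hit hardest are the spiny projection neurons of the striatum, which use GABA and respond to dopamine. Cortical pyramidal neurons project to them and are affected as well. In both neuron types, signals through calcium, cAMP and neuropeptides set the activity of genes that respond to synaptic input, and many such genes are known to be low in mouse models that carry the mutant fragment.

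Cortical samples held 202664 to 699709 gene reads each and striatal samples 251336 to 1349108. Each count is a sum of reads over the isoforms of an annotated gene, and a level is given as CPM (counts scaled to a common library size, with TMM factors), which can be compared between samples for a gene but not between genes. In the striatum, 4 samples had 2 files (NT 1, NT 2, R6/2 2 and R6/2 3, 2 of each genotype), and these were summed. Striatal samples with 1 file stood apart from the others: mitochondrial reads made up 1.42% to 3.28% of their gene reads, against 0.408% to 0.852% in those with 2 files and 0.332% to 0.575% in the cortex, and their mean isoform length was 1589 to 1840 nt against 2125 to 2197 nt. The number of files was a term in the main fits that held striatal samples. The striatal label matched its markers: the summed level of 8 markers of striatal projection neurons was 10300 to 14200 CPM in NT striatum and 391 to 476 CPM in NT cortex. The summed level of 8 cortical excitatory markers was low in both, at 208 to 243 CPM in NT cortex and 5.08 to 57.8 CPM in NT striatum. In bulk tissue, fewer cells of a type and less RNA per cell cannot be told apart.

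In both regions, more genes were lower than higher in R6/2 mice. In the cortex, 200 of 6121 genes passed an adjusted P of 0.05 (3.27%; edgeR quasi-likelihood test), of which 172 fell (2.81%) and 28 rose (0.457%). In the striatum, 332 of 7658 genes passed (4.34%), of which 294 fell (3.84%) and 38 rose (0.496%). Among the 5938 genes tested in both regions, 178 were called in the cortex (3.0%) and 249 in the striatum (4.19%). A set of 71 genes was called in both with the same direction, which is 1.20% of the genes tested in both, 39.9% of the cortical list and 28.5% of the striatal list. Of these, 66 fell (1.11% of the genes tested in both) and 5 rose (0.0842%). One gene, Marcksl1, was called in both in opposite directions (0.0168%). The count of 71 depended on the term for the number of files: without it, 12 genes were called in both, all among the 71. Leaving out 1 sample gave 43 to 91 genes in both (43 without striatum R6/2 2, 44 without R6/2 3), 95 to 305 in the cortex (95 without cortex R6/2 3, 305 without cortex NT 1) and 143 to 391 in the striatum (143 without striatum R6/2 2).

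**Figure D1:**
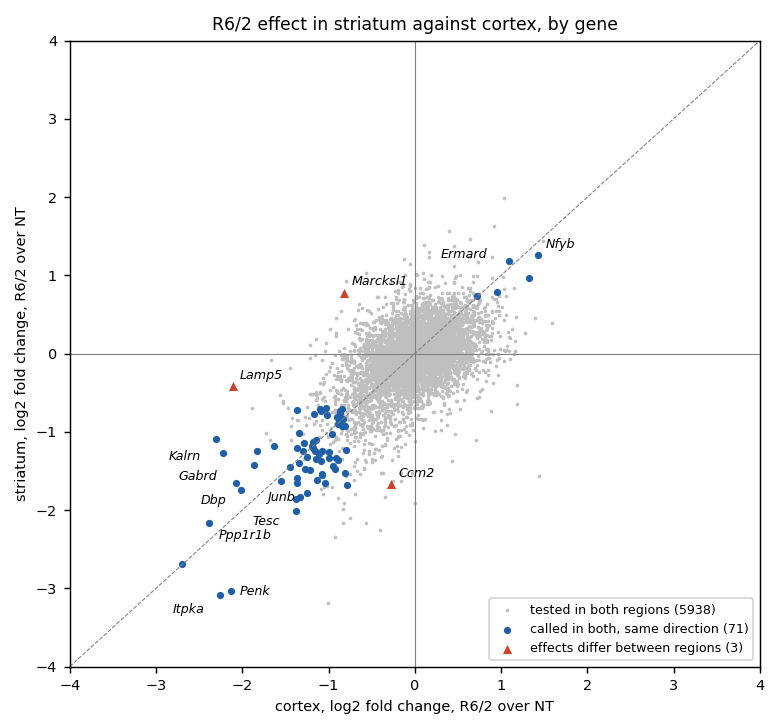
Each point is a gene tested in both regions, with its log2 fold change (R6/2 over NT) in the cortex on the horizontal axis and in the striatum on the vertical axis, and the dashed line marks equal effects. The 71 genes called in both regions in the same direction lie mostly in the lower left, 66 of them below 0 in both, and Lamp5, Marcksl1 and Ccm2 lie away from the line.

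Agreement in direction was not limited to the genes called in both. Of the 178 genes called in the cortex, 169 (94.9%) had the same direction in the striatum, and of the 249 genes called in the striatum, 235 (94.4%) had the same direction in the cortex, against 65.7% of all 5938 genes. Over all genes, the Pearson correlation of the 2 effects was 0.53 and the Spearman correlation 0.45, as a description over genes, which share libraries and depth and are not independent. Genes with a smaller p in one region agreed more often in the other. Binned on the cortical p, 58 of 58 genes below 0.0001 had the same direction in the striatum, and the share was 90.8% from 0.0001 to 0.001, 77.5% from 0.01 to 0.05 and 60.4% above 0.2. Binned on the striatal p, 73 of 73 genes below 0.0001 had the same direction in the cortex, and the share was 58.2% above 0.2.

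**Figure D2:**
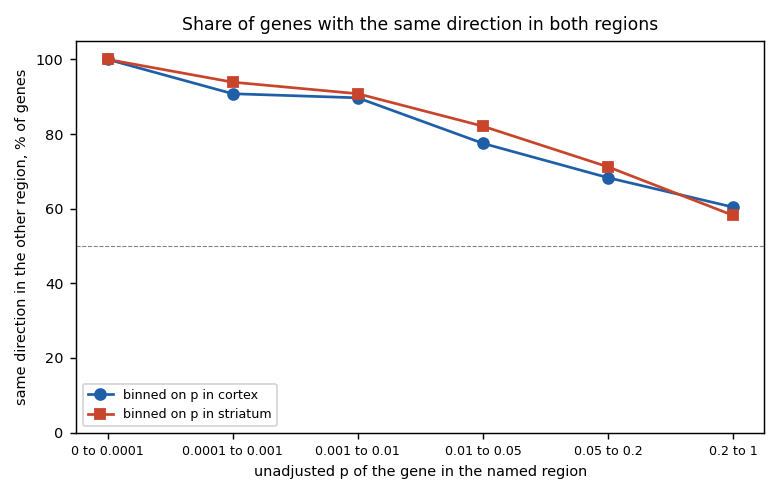
The horizontal axis gives bins of the unadjusted p of a gene in 1 region and the vertical axis the percent of genes in the bin with the same direction in the other region, with circles for bins on the cortical p and squares for bins on the striatal p. The share falls from 100% in the bins below 0.0001 to 60.4% and 58.2% in the bins above 0.2.

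The size of the effect in the other region was smaller. Genes that fell in the cortex had a median log2 fold change of -1.09 there and -0.80 in the striatum, and genes that fell in the striatum had a median of -1.08 there and -0.64 in the cortex. For genes that rose, the medians were 0.99 in the cortex against 0.35 in the striatum, and 0.92 in the striatum against 0.40 in the cortex. A median taken where genes were called is drawn away from 0 by the call, so these medians do not compare the strength of the regions. Among the 71 shared genes, the median log2 fold change was -1.13 (cortex) and -1.25 (striatum), and 40 of 71 had the larger effect in the striatum. The 95% interval of the difference between regions held 0 for 65 of the 71, with a median half-width of 0.64 on the log2 scale (0.72 over all genes tested in both), so differences below that size were mostly not detectable.

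The CPM of NT and R6/2 samples did not overlap for 64 of the 71 in the cortex (9.77% of all genes tested in both), for 46 in the striatum (5.62%) and for 42 in both (1.77%). These counts describe genes chosen by the same contrasts. Split by file number, all 71 kept their direction in the striatal samples with 2 files, and 70 of the 70 that could be fitted kept it in those with 1 file. The 71 were called from these same striatal samples together, so their direction in each part was largely set by that choice. Of the genes called in the cortex, 168 of 178 (94.4%) had the same direction in striatal samples with 2 files, against 67.3% of all genes tested there. In those with 1 file it was 140 of 166 (84.3%), against 59.4% of all genes. The striatal effects of the 2 kinds of sample correlated with each other at 0.41 over 5567 genes (Pearson).

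Genes of striatal projection neurons were among the largest shared declines. Penk encodes proenkephalin, the precursor of enkephalins, and lies at chr4:4133531-4138819 on the minus strand (mm10). Penk was at 4590, 6040, 5580 and 6000 CPM in the 4 NT striatal samples and at 764, 550, 818 and 587 CPM in the R6/2 samples. In the cortex it was at 127, 162, 147 and 129 CPM in NT and at 32.5, 23.3, 33.2 and 38.5 CPM in R6/2 mice. The groups did not overlap in either region. The log2 fold change was -3.04 ± 0.20 (SE; edgeR adjusted P = 8e-06) in the striatum, an 8.23-fold decline, and -2.13 ± 0.22 (adjusted P = 5.7e-06) in the cortex, a 4.36-fold decline. The difference of -0.89 (95% interval -1.48 to -0.29) did not pass adjustment over all genes (edgeR adjusted P = 0.77).

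Ppp1r1b encodes DARPP-32, a phosphatase inhibitor that integrates dopamine and glutamate signals in these neurons, and lies at chr11:98348404-98357796 on the plus strand. Ppp1r1b was at 3460, 5800, 3670 and 2570 CPM in NT striatum and at 772, 869, 1280 and 597 CPM in R6/2 striatum. In the cortex it was at 234, 191, 153 and 167 CPM in NT and at 38.2, 25.5, 40.4 and 36.1 CPM in R6/2 mice. Every R6/2 sample was below every NT sample of its region. The log2 fold change was -2.38 ± 0.22 in the cortex (edgeR adjusted P = 1.6e-06) and -2.16 ± 0.23 in the striatum (adjusted P = 0.0002), a difference of 0.25 with a 95% interval of -0.39 to 0.89.

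The cortical levels of these genes were a small part of the striatal ones: NT cortex had 4.81% of the NT striatal CPM for Ppp1r1b and 2.54% for Penk. The shares of other genes of striatal projection neurons varied, with 3.41% for Rgs9, a regulator of G protein signalling. They were 4.34% for the dopamine receptor Drd2, 5.54% for Drd1 and 7.47% for the adenosine receptor Adora2a. The neuropeptide precursor Tac1 had 12.6%, the adenylyl cyclase Adcy5 14.9% and Ngef 35.2%. Reads summed over the 4 cortical samples of each genotype, not scaled to depth, were 281 in NT and 75 in R6/2 for Ppp1r1b. They were 210 and 67 for Penk, 42 and 23 for Rgs9, and 24 and 8 for Adora2a. Drd1 had only 5 and 2 and Drd2 3 and 2, so their shares are imprecise. Reads of Pde10a, a striatal phosphodiesterase, were 18 and 18, which after scaling to depth were means of 10.4 CPM in NT and 8.26 CPM in R6/2 cortex. The summed level of all 8 striatal markers in the cortex was 391 to 476 CPM in NT and 95.5 to 126 CPM in R6/2 mice, none of them at 0 reads in either group. Whether striatal tissue in the cortical samples has a part in these cortical values was not tested.

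Itpka encodes a kinase of inositol trisphosphate that is enriched in dendritic spines, and lies at chr2:119742337-119751263 on the plus strand. Itpka was at 183, 151, 96.6 and 96.9 CPM in NT cortex and at 21.0, 31.8, 23.1 and 36.1 CPM in R6/2 cortex. Striatal levels were 17.1, 272, 52.5 and 55.9 CPM in NT and 16.7, 7.57, 13.8 and 12.3 CPM in R6/2 mice. The cortical groups were far apart, while in the striatum NT 1 was just above the highest R6/2 sample. The log2 fold change was -2.26 ± 0.27 in the cortex (edgeR adjusted P = 3.5e-05) and -3.09 ± 0.73 in the striatum (adjusted P = 0.029). Without striatum NT 2 the striatal value was -1.36, with an adjusted P of 0.052 (edgeR). Without any 1 of the 4 striatal R6/2 samples its adjusted P was between 0.051 and 0.12 (edgeR). Unlike Penk, Itpka was not lower in cortex, with a mean of 132 ± 42.7 CPM (SD, n = 4) in NT cortex against 99.3 ± 116 CPM in NT striatum.

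In the list of genes of striatal projection neurons, 17 of 36 were tested in both regions. Of these, 4 fell in both regions (1.11% of all genes tested in both): Penk, Ppp1r1b, Itpka and Ngef. Ngef, a guanine nucleotide exchange factor, had a log2 fold change of -1.30 ± 0.22 in the cortex (edgeR adjusted P = 0.0014) and -1.24 ± 0.20 in the striatum (adjusted P = 0.003). Over the striatal fit, 25 of the 34 tested members fell (3.84% of all genes tested) and none rose. Over the cortical fit 4 of 17 fell (2.81%). The medians of the 17 were -0.68 in the cortex and -1.24 in the striatum, against 0.02 and 0.00 over all genes.

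Among the lists built by function, which were chosen with earlier results of these data known, that of calcium signalling held the most shared genes. Of 32 listed genes tested in both regions, 9 fell in both (1.11% of all genes) and none rose, 12 of 37 tested cortical (2.81%) and 18 of 35 tested striatal values (3.84%) fell, and the medians were -0.45 and -0.76. Besides Itpka, they included Atp2b2, a calcium pump of the plasma membrane at chr6:113743831-114042613 on the minus strand. Atp2b2 was at 539, 344, 381 and 470 CPM in NT cortex and at 115, 168, 209 and 233 CPM in R6/2 cortex. The NT striatal samples were at 193, 238, 325 and 229 CPM and the R6/2 ones at 79.0, 106, 120 and 88.5 CPM. The groups did not overlap, and the effects were nearly equal, with log2 fold changes of -1.25 ± 0.22 and -1.32 ± 0.20 (edgeR adjusted P = 0.002 in each) and a difference of -0.05 (95% interval -0.69 to 0.59).

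Camkk2, a kinase that activates other calmodulin-dependent kinases, had log2 fold changes of -1.86 ± 0.22 in the cortex and -1.43 ± 0.23 in the striatum (edgeR adjusted P = 3.5e-05 and 0.0032). Itpr1, the channel through which inositol trisphosphate releases calcium, had -0.99 ± 0.19 and -1.26 ± 0.16 (edgeR adjusted P = 0.0038 and 0.00089). Ppp3ca, the catalytic subunit of calcineurin, had -0.95 ± 0.22 and -1.44 ± 0.22 (edgeR adjusted P = 0.016 and 0.0026). Tesc, a calcium-binding protein at chr5:118027743-118061878 on the plus strand, was not on that list and also fell in both. Tesc was at 192, 103, 147 and 86.8 CPM in NT cortex and at 51.6, 36.1, 66.4 and 36.1 CPM in R6/2 cortex. NT striatum had 279, 444, 470 and 706 CPM and R6/2 striatum 137, 85.4, 112 and 128 CPM. All R6/2 samples lay below all NT samples of the region. Its log2 fold changes were -1.38 ± 0.27 in the cortex and -2.01 ± 0.21 in the striatum (edgeR adjusted P = 0.0051 and 0.00018).

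Gabrd, Kalrn and Hrh3 were receptor or synaptic genes that fell in both regions. Gabrd encodes the delta subunit of GABA-A receptors, which carries tonic inhibition outside synapses, and lies at chr4:155384980-155398112 on the minus strand. Gabrd was at 299, 209, 280 and 240 CPM in NT cortex and at 47.8, 61.5, 57.8 and 74.5 CPM in R6/2 cortex. Striatal levels were 308, 398, 338 and 279 CPM in NT and 94.2, 111, 123 and 98.3 CPM in R6/2 mice. The groups were wide apart in both regions, with log2 fold changes of -2.07 ± 0.19 and -1.66 ± 0.16 (edgeR adjusted P = 1.6e-06 and 0.00012). It was the only one of the 19 glutamate and GABA-A receptor genes tested in both regions that was called in both, and no synaptic vesicle gene was. The medians of the 19 were -0.10 in the cortex and -0.39 in the striatum, with 10 lower in both and 8 apart.

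Kalrn encodes kalirin, an exchange factor that shapes dendritic spines, and lies at chr16:33969073-34573532 on the minus strand. Kalrn was at 155, 101, 102 and 139 CPM in NT cortex and at 21.0, 29.7, 28.9 and 26.4 CPM in R6/2 cortex. The NT striatal samples were at 44.7, 65.7, 44.3 and 40.6 CPM and the R6/2 ones at 18.2, 18.4, 24.4 and 24.6 CPM. The groups did not overlap, and the log2 fold changes were -2.22 ± 0.24 in the cortex and -1.27 ± 0.24 in the striatum (edgeR adjusted P = 9.5e-06 and 0.0096). The difference of 0.97 (95% interval 0.27 to 1.68) did not pass adjustment (edgeR adjusted P = 0.79). With reads of the genomic class added, the cortical value was -1.29, the striatal one -1.06 and the difference 0.25. Without striatum R6/2 2, the striatal value was -1.13 with an adjusted P of 0.072 (edgeR).

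Hrh3, the histamine H3 receptor, had the largest effect in the weaker region of any shared gene and was chosen for mention after its values were seen, since its cortical reads were few. Hrh3 was at 143, 161, 141 and 152 CPM in NT striatum and at 27.3, 18.4, 24.4 and 24.6 CPM in R6/2 striatum. In the cortex it was at 39.5, 40.4, 30.5 and 42.4 CPM in NT and at 7.64, 6.37, 1.44 and 9.62 CPM in R6/2 mice, from 59 reads in NT and 12 in R6/2 in all. The log2 fold changes were -2.70 ± 0.40 in the cortex and -2.69 ± 0.19 in the striatum (edgeR adjusted P = 0.00041 and 9.1e-06), with a difference of 0.05 (95% interval -0.53 to 0.64).

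Junb and Homer1 were the 2 immediate early genes, which respond to synaptic activity, that fell in both regions. Of this list, 7 of 26 were tested in both regions, and all 7 had negative log2 fold changes in both (against 1887 of 5938 genes overall), with medians of -1.28 (cortex) and -1.01 (striatum). The cortical test was passed downward by 4 of 9 (2.81% of all genes tested), the striatal one by 5 of 10 (3.84%), and both by 2 of 7 (1.11%). Junb encodes a subunit of the AP-1 transcription factor and lies at chr8:84974484-84978718 on the minus strand. Junb was at 164, 207, 351 and 484 CPM in NT cortex and at 78.3, 117, 91.0 and 125 CPM in R6/2 cortex. NT striatum had 124, 203, 167 and 173 CPM and R6/2 striatum 38.0, 68.1, 64.7 and 44.2 CPM. The NT cortical samples were spread widely but none reached down to the R6/2 samples. The log2 fold changes were -1.55 ± 0.28 and -1.63 ± 0.21 (edgeR adjusted P = 0.0023 and 0.00091), a difference of -0.05 (95% interval -0.84 to 0.74).

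Homer1, a scaffold of the postsynaptic density with a form induced by activity, had -1.33 ± 0.30 in the cortex and -1.83 ± 0.39 in the striatum (edgeR adjusted P = 0.014 and 0.018), and -1.09 in the striatum without striatum NT 2. Dbp, a transcription factor driven by the circadian clock, lies at chr7:45705088-45710203 on the plus strand. Dbp was at 355, 380, 269 and 335 CPM in NT cortex and at 72.6, 87.0, 72.2 and 101 CPM in R6/2 cortex. Striatal levels were 387, 632, 435 and 411 CPM in NT and 140, 145, 171 and 108 CPM in R6/2 mice. No R6/2 sample reached an NT sample of its region. Its log2 fold changes were -2.02 ± 0.19 and -1.74 ± 0.19 (edgeR adjusted P = 1.6e-06 and 0.00022). Of the 9 clock genes tested in both regions, Dbp alone was called in both, and the time of day at which the mice were killed was not used here. Cry1, a repressor of the clock, had 1.39 ± 0.32 in the cortex (edgeR adjusted P = 0.018) and 0.45 ± 0.30 in the striatum (adjusted P = 0.50).

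Glial genes were also among those that fell. Htra1 encodes a secreted serine protease made by astrocytes among other cells, and lies at chr7:130936111-130985660 on the plus strand. Htra1 was at 510, 688, 732 and 500 CPM in NT cortex and between 172 and 293 CPM in the 4 R6/2 cortical samples. The NT striatal samples were at 504, 589, 337 and 366 CPM and the R6/2 ones at 199, 205, 233 and 135 CPM. The groups did not overlap, with log2 fold changes of -1.36 ± 0.21 and -1.21 ± 0.17 (edgeR adjusted P = 0.00062 and 0.0015). Of 15 astrocyte markers tested in both regions, Aldoc, a glycolytic enzyme, fell in both, at -1.28 ± 0.22 and -1.14 ± 0.21 (edgeR adjusted P = 0.0018 and 0.0069). In all, 4 of 15 fell in the cortex (2.81% of all genes tested), while 2 of 15 fell in the striatum (3.84%), with medians of -0.65 and -0.49. The summed level of all 16 astrocyte markers was 20900 to 33200 CPM in NT and 14200 to 16300 CPM in R6/2 cortex, and 20000 to 29500 CPM against 14000 to 18400 CPM in the striatum, with none at 0 reads in any group. Of 13 oligodendrocyte markers, Cldn11, a myelin tight junction protein, fell in both, at -0.90 ± 0.22 and -0.81 ± 0.17 (edgeR adjusted P = 0.026 and 0.017). It was the 1 of 13 that fell in the cortex (2.81% of all genes tested), while 4 of 15 fell in the striatum (3.84%). The summed levels of that list overlapped between genotypes in both regions. Of 8 microglial markers tested in both regions, none was called in either.

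**Figure D3:**
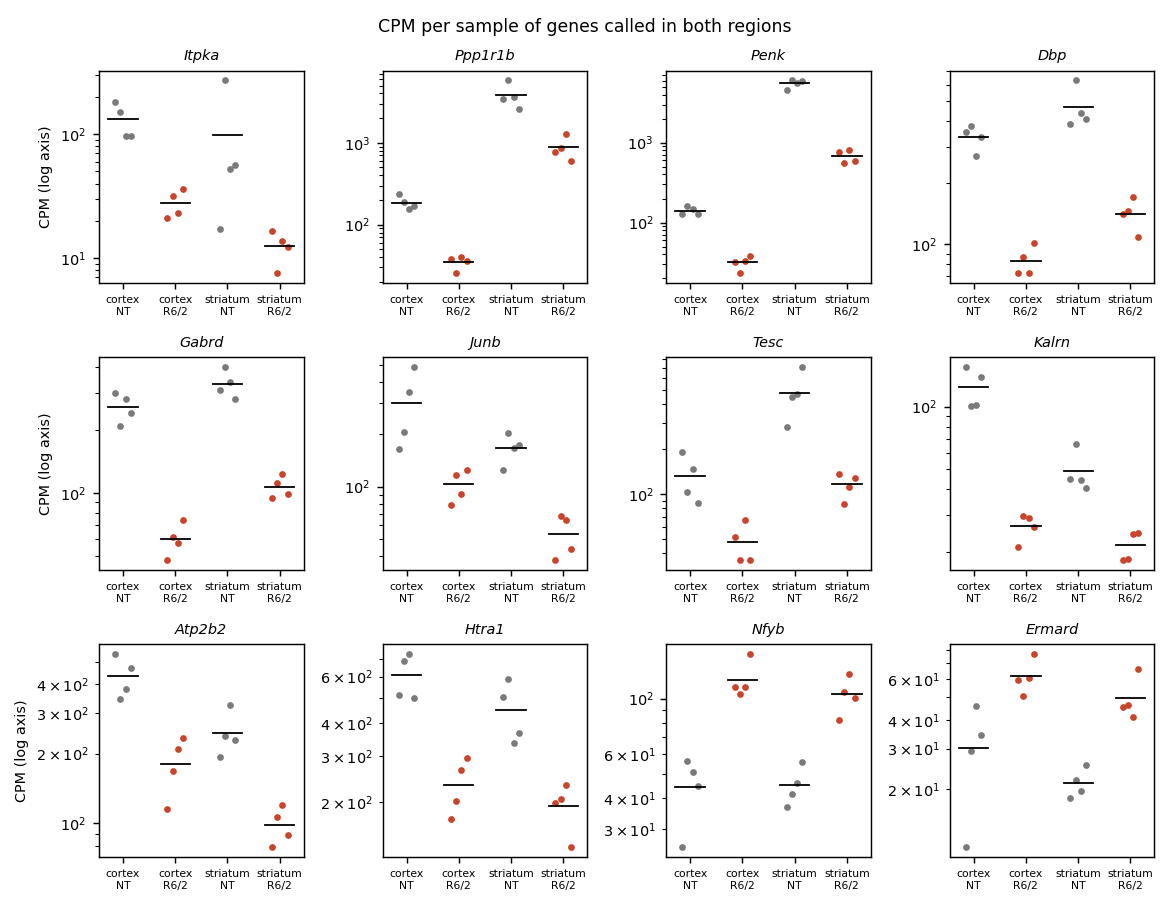
Each panel shows 1 gene called in both regions, with the CPM of each sample on a log axis, grey points for NT, red points for R6/2 and a line at the mean of the 4 samples. R6/2 samples lie below NT samples in both regions for the 10 genes that fell and above them for Nfyb and Ermard, and striatum NT 2 stands at 272 CPM for Itpka.

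The 5 genes that rose in both regions were Nfyb, Ermard, Snhg12, Rnpep and Apod. Nfyb encodes the B subunit of NF-Y, a transcription factor that binds CCAAT boxes in promoters, and lies at chr10:82748701-82764144 on the minus strand. Nfyb was at 25.4, 56.2, 50.8 and 44.4 CPM in NT cortex and at 111, 104, 111 and 151 CPM in R6/2 cortex. NT striatum had 36.8, 41.3, 46.0 and 55.9 CPM and R6/2 striatum 82.0, 106, 126 and 101 CPM. All R6/2 samples were above all NT samples of the region. The log2 fold changes were 1.43 ± 0.24 in the cortex, a 2.70-fold rise, and 1.26 ± 0.20 in the striatum, a 2.40-fold rise (edgeR adjusted P = 0.0015 and 0.0032).

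Ermard, a protein of the endoplasmic reticulum membrane, lies at chr17:15041208-15090044 on the plus strand. Ermard was at 11.3, 29.2, 45.8 and 34.3 CPM in NT cortex and at 59.2, 50.9, 60.6 and 76.9 CPM in R6/2 cortex. Striatal levels were 18.4, 21.9, 19.7 and 25.4 CPM in NT and 45.6, 46.5, 41.3 and 66.3 CPM in R6/2 mice. The groups did not overlap, but the cortical NT values rest on 4, 13, 9 and 17 reads. The log2 fold changes were 1.09 ± 0.30 and 1.18 ± 0.23 (edgeR adjusted P = 0.046 and 0.012), and the cortical adjusted P was between 0.065 and 0.12 without cortex NT 1, NT 2, NT 4 or any 1 of the 4 R6/2 samples, and the striatal one 0.051 without striatum NT 3 or R6/2 2. Snhg12, a host gene of small nucleolar RNAs, had 1.32 ± 0.31 and 0.97 ± 0.24 (edgeR adjusted P = 0.017 and 0.037). Rnpep, an aminopeptidase, had 0.95 ± 0.21 and 0.79 ± 0.20 (edgeR adjusted P = 0.015 and 0.042), and Apod, a lipocalin that carries lipids, had 0.72 ± 0.19 and 0.74 ± 0.17 (edgeR adjusted P = 0.043 and 0.026).

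Since NF-Y binds CCAAT, promoter windows of the shared genes are shown to let its letters be seen. Windows of 300 bases (RefSeq, GRCm38.p6, from 250 bases before to 50 after a start) were found for 51 of the 66 genes that fell and 4 of the 5 that rose. They are printed for Dbp, chr7:45704997-45705296 on the plus strand, Junb, chr8:84978699-84978998 on the minus strand, and Nfyb, chr10:82764092-82764391 on the minus strand, in the direction of transcription and with capitals on CCAAT or its complement ATTGG.
Dbp: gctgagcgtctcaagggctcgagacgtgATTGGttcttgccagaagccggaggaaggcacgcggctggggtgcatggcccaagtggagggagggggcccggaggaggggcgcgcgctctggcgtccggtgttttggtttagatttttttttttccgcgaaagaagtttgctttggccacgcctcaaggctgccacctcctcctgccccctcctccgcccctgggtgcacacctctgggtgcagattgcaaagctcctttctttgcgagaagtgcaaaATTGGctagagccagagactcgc
Junb: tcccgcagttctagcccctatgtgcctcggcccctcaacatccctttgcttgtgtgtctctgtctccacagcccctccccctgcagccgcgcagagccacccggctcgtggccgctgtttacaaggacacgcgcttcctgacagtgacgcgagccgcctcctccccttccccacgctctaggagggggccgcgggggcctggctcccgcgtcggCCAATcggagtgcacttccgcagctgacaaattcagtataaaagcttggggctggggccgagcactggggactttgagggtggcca
Nfyb: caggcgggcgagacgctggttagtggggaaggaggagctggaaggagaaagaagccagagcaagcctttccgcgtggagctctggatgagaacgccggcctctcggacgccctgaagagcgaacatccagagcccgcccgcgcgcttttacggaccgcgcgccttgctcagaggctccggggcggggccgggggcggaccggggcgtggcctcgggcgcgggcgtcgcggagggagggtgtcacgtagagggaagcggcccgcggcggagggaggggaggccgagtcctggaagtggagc
CCAAT was found on either strand in 25 of the 51 genes that fell (49.0%) and in 0 of the 4 that rose, against 44.4% of the genes tested in both regions and 41.1% of all 27025 genes with a window. The GC box GGGCGG was found in 74.5% of those that fell against 70.9% of the genes tested and 38.2% of all, the E-box CACGTG in 7.84% against 13.0% and 8.09%, and the cAMP response element TGACGTCA in 0 of the 51 against 4.24% and 2.03%. A gene with several windows was counted if any held the letters. The shares of CCAAT and GGGCGG were close to those of the genes tested. For CACGTG and TGACGTCA, found in 4 and 0 of the 51, the counts were too small to tell apart from those shares.

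The effects of 3 of 7390 genes differed between regions (0.0406%; edgeR interaction, adjusted P below 0.05), with the value higher in the striatum for 2 (0.0271%) and lower for 1 (0.0135%), while 430 had an unadjusted p below 0.05. DESeq2 called 7. Lamp5, a membrane protein of a class of cortical interneurons, lies at chr2:136052239-136069917 on the plus strand. Lamp5 was at 423, 377, 269 and 357 CPM in NT cortex and at 76.4, 99.7, 80.9 and 72.1 CPM in R6/2 cortex. The NT striatal samples were at 137, 154, 153 and 188 CPM and the R6/2 ones at 108, 107, 132 and 118 CPM. The groups did not overlap in either region, but the cortical gap was the larger. The log2 fold change was -2.11 ± 0.20 in the cortex (edgeR adjusted P = 1.6e-06) and -0.42 ± 0.16 in the striatum (adjusted P = 0.18), a difference of 1.72 with a 95% interval of 1.21 to 2.22 (interaction adjusted P = 0.0031).

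Marcksl1 encodes a protein that binds actin and calmodulin and lies at chr4:129513581-129515985 on the plus strand. Marcksl1 was at 186, 261, 142 and 208 CPM in NT cortex and at 109, 136, 108 and 103 CPM in R6/2 cortex. NT striatum had 145, 81.9, 75.5 and 45.7 CPM and R6/2 striatum 120, 176, 202 and 115 CPM. The cortical groups did not overlap, while in the striatum NT 1 lay above 2 of the R6/2 samples. The log2 fold change was -0.82 ± 0.20 in the cortex and 0.78 ± 0.20 in the striatum (edgeR adjusted P = 0.020 and 0.044), a difference of 1.63 with a 95% interval of 1.03 to 2.23 (interaction adjusted P = 0.033). Its cortical adjusted P (edgeR) was between 0.061 and 0.11 without cortex NT 2, NT 4, R6/2 1, R6/2 3 or R6/2 4, and its striatal one between 0.055 and 0.14 without any 1 striatal sample other than NT 1. The interaction was between 1.44 and 1.72, with an adjusted P of 0.053 to 0.15 (edgeR), when 1 of striatum NT 2, NT 3, any R6/2 sample of either region, or cortex NT 2 or NT 4 was left out.

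Ccm2, a scaffold protein that stabilises the junctions of brain vessels and is also made by neurons, lies at chr11:6546887-6596744 on the plus strand. Ccm2 was at 209, 326, 202 and 173 CPM in NT striatum and at 54.7, 82.1, 99.6 and 56.5 CPM in R6/2 striatum. In the cortex it was at 135, 119, 107 and 121 CPM in NT and at 101, 106, 105 and 86.5 CPM in R6/2 mice. The striatal groups were far apart and the cortical ones close, with log2 fold changes of -1.67 ± 0.18 and -0.27 ± 0.18 (edgeR adjusted P = 0.00026 and 0.49). The difference was -1.37 with a 95% interval of -1.89 to -0.86 (interaction adjusted P = 0.033). When 1 of striatum NT 2, NT 3, cortex NT 2, NT 3, NT 4 or any R6/2 sample was left out, the interaction was between -1.46 and -1.22 and its adjusted P (edgeR) between 0.063 and 0.18.

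**Figure D4:**
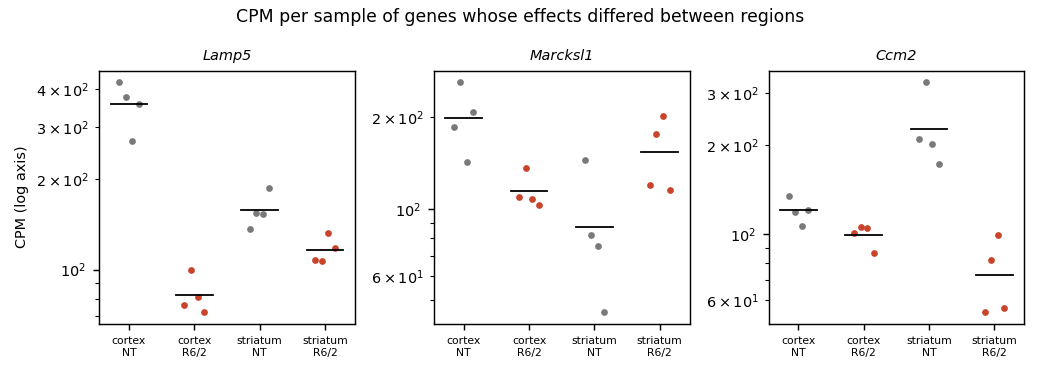
Each panel shows 1 gene whose R6/2 effect differed between regions, with the CPM of each sample on a log axis, grey points for NT, red points for R6/2 and a line at the mean of the 4 samples. Lamp5 has its larger gap in the cortex, Ccm2 in the striatum, and Marcksl1 is lower in R6/2 cortex and higher on average in R6/2 striatum.

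A call in only 1 region was seldom a difference that passed the adjusted interaction test (edgeR). Of the 106 genes tested in both and called in the cortex alone, 98 had the same direction in the striatum (92.5%, against 65.7% of all genes). The interaction test was passed by 1 of the 106, Lamp5, against 0.0406% of all genes. An unadjusted interaction p below 0.05 (edgeR) was found for 42 of the 106, against 5.93% of all genes tested in both. Of the 177 called in the striatum alone, 164 had the same direction in the cortex (92.7%), 1 (Ccm2) passed, and 63 had an unadjusted interaction p below 0.05 (edgeR). The median ratio of the effect in the other region to that in the calling region was 0.43 for these cortical calls and 0.47 for the striatal ones. A call in 1 region and none in the other draws the 2 effects apart by choice. After Lamp5, the largest difference among genes called in the cortex alone was that of Bok, a member of the Bcl-2 family. Bok was at -1.67 in the cortex and -0.08 in the striatum, a difference of 1.62 (95% interval 0.94 to 2.30, edgeR adjusted P = 0.11). Genes tested in 1 region only cannot be compared: 22 were called in the cortex and 83 in the striatum. Rgs9, for example, had 2237 reads over NT striatum and 471 over R6/2 striatum, but 42 and 23 in the cortex. Crhbp, which binds corticotropin-releasing hormone, had 161 and 67 reads in the cortex but 32 and 19 in the striatum.

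Several lists had medians of the same sign in both regions. Potassium channel genes had medians of -0.71 in the cortex and -0.56 in the striatum, with 16 of 17 lower in both regions, although no member was called in both. Cholesterol synthesis genes had medians of -0.40 and -0.48 (13 of 16 lower in both), cyclic nucleotide and G protein signalling genes -0.36 and -0.42 (17 of 26), synaptic vesicle genes -0.27 and -0.20 (18 of 28), and neuropeptide precursors -0.56 and -0.46 (7 of 10). None of these lists had a member called in both but Penk among the neuropeptides. Splicing and m6A genes had medians of 0.25 and 0.14 with 34 of 49 higher in both, although the only members called were Rbfox3 and Rbfox1, neuronal splicing factors that fell in the striatum (-0.77 and -0.89; edgeR adjusted P = 0.010 and 0.017). Heat shock and chaperone genes had 0.09 and 0.13 with 23 of 34 higher in both and no member called. For all 5938 genes, 1887 were lower in both, 2017 were higher in both and 2034 moved apart.

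In other lists the medians had opposite signs, with no test of that difference as a list. Nuclear genes of oxidative phosphorylation had medians of 0.23 (cortex) and -0.12 (striatum), and 47 of 75 had opposite signs. Ribosomal protein genes had 0.35 and -0.06, and 44 of 77 had opposite signs. Few members were called: 2 of 75 and 1 of 77 rose in the cortex (0.457% of all genes tested there). None was called in the striatum or for interaction. Cortical excitatory and layer genes had medians of -0.51 and 0.03 with 5 of 10 apart. Of the 10, 2 fell in both regions, Chn1 and Crym (1.11% of all genes tested in both). Of that list, 2 of 15 fell in the cortical fit (2.81% of all genes tested) and 4 of 12 in the striatal fit (3.84%), and none rose in either. Not all members are particular to the cortex: the NT means were 1340 CPM in cortex and 1330 CPM in striatum for Chn1, and 96.6 and 127 CPM for Crym. Chn1, a GTPase-activating protein of Rac, had -0.89 ± 0.22 and -1.36 ± 0.17, and Crym, which binds thyroid hormone, had -0.99 ± 0.25 and -1.34 ± 0.20 (edgeR adjusted P = 0.023 and 0.00054, and 0.028 and 0.002).

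Interneuron markers had medians of -0.98 and -0.68 over 6 genes, 6 of 6 lower in both regions and none called in both. The cortical test was passed downward by 5 of 9 (2.81% of all genes tested) and the striatal one by 1 of 9 (3.84%). Their summed level was 1130 to 1460 CPM in NT and 534 to 565 CPM in R6/2 cortex, against 1280 to 1560 and 840 to 1010 CPM in the striatum. The list holds Gad1 and Gad2, for enzymes that make GABA, which striatal projection neurons also use. Its striatal values are therefore not those of interneurons alone.

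HD266ssg is a set of striatal genes that the study used as a signature of Huntington's disease. It was used as the study lists it, with directions taken from that list. The paper states that the set came from expression changes in several mouse models of the disease. In its short reads, the whole set was changed in the striatum, nearly all in the listed direction, and the cortex was broadly similar. The paper describes the long-read samples as a subset of the short-read ones. The values below are therefore not an independent test of the listed directions. Of the 54 genes listed as lower that were tested in both regions, 16 fell in both (1.11% of all genes), and the medians were -0.65 in the cortex and -1.25 in the striatum, with 50 of 54 lower in both. The cortical test was passed downward by 18 of 57 (2.81% of all genes) and the striatal test by 70 of 94 (3.84%). Of the 11 listed as higher, 10 were higher in both regions, with medians of 0.16 and 0.85, and none was called in both.

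**Figure D5:**
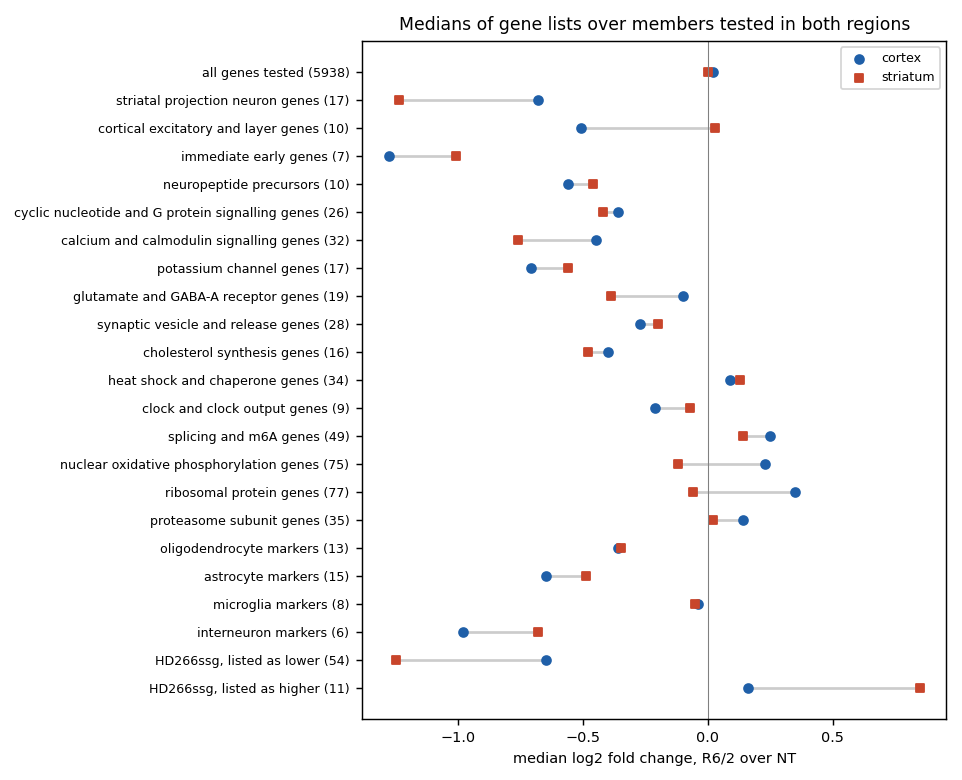
Each row is a gene list with the number of members tested in both regions in brackets, and the horizontal axis gives the median log2 fold change (R6/2 over NT) in cortex (circles) and striatum (squares). Genes of striatal projection neurons, immediate early genes and calcium genes lie below 0 in both regions, and ribosomal protein and oxidative phosphorylation genes lie above 0 in the cortex and slightly below 0 in the striatum.

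Choosing disjoint or shared sample numbers moved the correlation of the 2 effects. The striatal effect of the samples with 2 files correlated at 0.58 with the cortical effect of the samples of the same numbers and at 0.36 with that of the other numbers (Pearson, over 5407 genes). The striatal effect of the samples with 1 file correlated at 0.26 with the cortical effect of its own numbers and at 0.32 with that of the others. The cortical effects of these 2 subsets of numbers correlated with each other at 0.36, and the striatal effects of the 2 subsets at 0.42. These values are a description, with no test.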

How the data were processed

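Iso-seq of 16 samples (4 per genotype and region) was used. The authors made consensus reads, selected polyadenylated full-length ones, aligned these to mm10 (minimap2 2.17-r941), corrected errors and assigned them to isoforms with TALON. The deposited values are counts of reads per isoform, without normalization or the filter on transcripts, for 815498 isoforms in 20 files. The 4 striatal samples with 2 files had both summed; what the 2 files are is not stated beyond replicates of raw data, and their counts differed beyond sampling noise.

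From these counts, reads of isoforms of known genes that TALON classes as known, incomplete (ISM) or new combinations (NIC) or forms (NNC) were summed per gene, genomic, antisense and intergenic classes being left out. Each region was fitted with edgeR 4.0.16 (R 4.3.3; TMM, filterByExpr with a minimum count of 10, quasi-likelihood test), with the number of files as a term in the striatum. The difference between regions was the interaction in 1 fit of all 16 samples. Adjusted P is Benjamini-Hochberg over all genes tested, with 0.05 as threshold. An interval covers 95%. SE comes from the fit and SD from CPM of 4 samples. Scripts were tested on simulated data. Positions come from GENCODE M21 (mm10). Symbols that had been turned into dates (25) were restored from gene IDs.

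Genes described singly were those called in both regions in the same direction averaging 20 reads or more in the higher genotype, with no overlap of CPM in either region (the 10 with the largest smaller effect in each direction), those called for interaction, and, in part, the up to 4 members of each list with the smallest larger p. The members and lists were chosen with earlier results of these data known. Alternatives were RLE, upper-quartile and DESeq2 1.42.0 scaling or tests, other filters, isoform classes, thresholds and file handling, a replicate block, and leaving out each sample.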

Additional observations from a re-analysis of the deposited data

Results flagged for a closer look

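Among 60 groups of 4 samples (the genes described singly, in each region and genotype), 4 had a sample far from the other 3, where chance flags about 1 in 20 groups. Itpka stood at 272 CPM in striatum NT 2, Kalrn at 65.7 CPM in striatum NT 2, Nfyb at 151 CPM in cortex R6/2 4 and Marcksl1 at 136 CPM in cortex R6/2 2. Without striatum NT 2, the striatal log2 fold change of Itpka was -1.36 in place of -3.09.

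The R6/2 effect differed between the regions, by the interaction of the edgeR fit, for Lamp5 (striatal minus cortical log2 effect of 1.72), Marcksl1 (1.63) and Ccm2 (-1.37).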

How the results depend on the processing

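The number of genes called in both regions in the same direction (71) depended on how the 2 files of striatal samples were handled and on how many samples were used. Without the term for files it was 12, with 39 genes called in the striatum, 100% of them with the same direction in the cortex, 1 called for interaction and 0 in opposite directions. With the first file only it was 7, with 20 in the striatum, 100% in the same direction, 0 for interaction, 0 opposite and a Pearson correlation of 0.49. With striatal samples of 1 file it was 17 (0 opposite, 0 for interaction, 55 in the striatum, correlation 0.34, shares in the same direction of 84.4% of cortical and 97.4% of striatal calls), and with those of 2 files 13 (0 opposite, 0 for interaction, 34 in the striatum, share 96.0%). Leaving out ISM reads gave 41 in both, 0 opposite, 95 in the cortex and 1 for interaction, and adding genomic reads moved the striatal share to 92.0%. No filter on low counts gave 121 in both, 3 opposite, 606 in the striatum, 8 for interaction, a correlation of 0.17 and a share of 90.7%. The calls were then 76.5% lower in the cortex and 74.6% in the striatum, against 86.0% and 88.6%. With at least 10 reads on average, or at least 20 in both regions, the correlation was 0.58. DESeq2 gave 7 genes for interaction. Scaling by RLE or upper quartiles gave 66 and 64 in both.

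A threshold of 0.01 gave 26 in both, 0 opposite, 77 in the cortex, 127 in the striatum and 1 for interaction, and a threshold of 0.1 gave 119 in both, 311 in the cortex and 527 in the striatum. Adjusting the larger of the 2 p values gave 36. The correlation between regions was 0.35 for striatal samples of 2 files and 0.31 for those of 1 file against cortical samples of other numbers, and 0.58 and 0.27 against those of the same numbers, the last pair being chosen after seeing the data.

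A replicate block, with the sample number as a term, gave 46 in both (43 of them among the 71), 0 opposite, 185 in the striatum and 1 for interaction. The numbers were not shown to pair the samples: deviations of cortical and striatal samples of the same number correlated at -0.26 to 0.46, above 0.1 in 5 of 8, with 5 of 8 closest to their own number, and those of NT and R6/2 samples at -0.59 to 0.63, above 0.1 in 4 of 8, with 3 of 8 closest to their own.

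When 1 sample was left out, 43 to 91 genes were called in both in the same direction (43 without striatum R6/2 2, 44 without R6/2 3), 0 to 1 in opposite directions, 95 to 305 in the cortex (305 without cortex NT 1, and 123, 118, 95 and 133 without R6/2 1, 2, 3 and 4), 143 to 391 in the striatum (143, 179, 188 and 182 without R6/2 2, 1, 3 and 4, 217 and 198 without NT 2 and NT 3) and 1 to 3 for interaction. The correlation was 0.46 to 0.58, and the shares in the same direction 84.3% to 97.2% of cortical and 93.3% to 98.4% of striatal calls. Without cortex NT 1, 73.1% of cortical calls were lower. For single genes, 4041 values stayed on the same side of the threshold, called or not, 348 lost a call, 94 gained one, and none changed sign with a call. Why the settings differ was not tested. Depth limits low genes: the least read shared gene had 11.8 reads on average in the cortex.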
